A study of Mus musculus with 192 samples.

Results

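The interferon regulatory factors (IRFs) described here are the 5 genes Irf1, Irf2, Irf3, Irf5 and Irf7. They were followed through 97 start-site windows of 150 bp that the deposited RefSeq annotation names for them within 1000 bp of an annotated transcription start, out of 553094 windows and 18460 named genes in all. Irf7 has 42 of these windows, Irf1 23, Irf2 14, and Irf3 and Irf5 9 each. A cell counted as listing a gene when its own peak list held a peak on the gene's strand at such a window.

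The cells were mouse embryonic fibroblasts (MEFs, connective-tissue cells grown out of embryos) of strain C57BL/6, and were profiled one by one by single-cell TSS-seq, in which sequenced 5′ ends of polyadenylated RNA mark where transcription started. All of them received interferon-beta at 100 U/ml for 1 h. In the naive group (96 cells) nothing preceded this treatment as far as the labels say, and the pretreated group (96 cells) had an earlier treatment whose agent and duration the labels do not give. No animal, culture, plate or cells without interferon are named, so each group counts as 1 sample, the differences have no replicate check, and no test between groups was run.

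IRFs are transcription factors with a shared DNA-binding domain that recognises repeats of GAAA in the interferon-stimulated response elements (ISREs) of interferon genes and interferon-responsive genes. Some are present in an inactive form until kinases such as TBK1 phosphorylate them, as for IRF3, while the genes of others are themselves switched on by interferon, as for IRF7 and IRF1. In fibroblasts, IRF3 is known for the first wave of interferon-beta transcription after infection and IRF7 for its amplification, IRF1 for activating and IRF2 for dampening a shared set of targets. The genes for IRF1 and IRF7 are textbook targets of the STAT proteins that the interferon receptor activates.

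The 250 bases before the annotated starts of Irf1, Irf2 and Irf7 are shown because these genes gave most of the tags and because they hold the motifs that a search of all 5 genes found. They come from RefSeq on build GRCm38.p6 and run 5′ to 3′ on the gene's strand, ending at the base before the start. That build is later than the mm9 of the data, and no coordinate was converted between them. Capitals mark 3 motifs. TTCNNNGAA is the gamma-activated site (GAS) that STAT dimers recognise. GAAANNGAAA is the core of an ISRE. The last is the core promoter element TATAAA. The stretches lie at chr11:53769764-53770013 on the + strand (Irf1), chr8:46739495-46739744 on the + strand (Irf2) and chr7:141266425-141266674 on the - strand (Irf7).
Irf1: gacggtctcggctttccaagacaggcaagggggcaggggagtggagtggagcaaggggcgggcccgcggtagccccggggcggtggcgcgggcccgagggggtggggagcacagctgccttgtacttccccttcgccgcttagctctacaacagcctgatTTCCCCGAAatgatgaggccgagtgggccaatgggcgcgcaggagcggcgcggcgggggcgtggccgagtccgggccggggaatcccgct
Irf2: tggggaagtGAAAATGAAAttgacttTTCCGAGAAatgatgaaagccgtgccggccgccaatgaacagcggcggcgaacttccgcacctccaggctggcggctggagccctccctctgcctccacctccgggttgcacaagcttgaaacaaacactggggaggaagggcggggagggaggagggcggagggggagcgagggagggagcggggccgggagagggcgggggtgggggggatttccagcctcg
Irf7: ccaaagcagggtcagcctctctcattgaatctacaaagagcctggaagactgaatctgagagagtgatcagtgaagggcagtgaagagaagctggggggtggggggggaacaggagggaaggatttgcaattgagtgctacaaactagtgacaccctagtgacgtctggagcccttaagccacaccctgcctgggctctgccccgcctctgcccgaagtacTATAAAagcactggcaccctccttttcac
The Irf1 stretch holds 1 GAS match, TTCCCCGAA, whose first base is at -90 from the start. In the Irf2 stretch an ISRE core, GAAAATGAAA, begins at -241 and a GAS match, TTCCGAGAA, at -224. The Irf7 stretch has TATAAA at -29 and neither of the other motifs. The stretches of Irf3 and Irf5 held none of the 3, nor did that of the second annotated Irf1 start. Among 32851 RefSeq promoters of the same length, searched on both strands, 7.02% held TTCNNNGAA, 2.98% GAAANNGAAA and 12.4% TATAAA. A match describes letters in this window and is no measured site, and an absent match says nothing about the factor.

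After leaving out cells with under 10% of the median total of 2305628 tags (a tag is 1 aligned read), 92 naive and 85 pretreated cells remained, with 305066 to 3857034 and 502374 to 13174313 total tags and a median of 5231.5 and 6605 listed peaks per cell. No 2 cells shared their totals. Of 12 fibroblast markers, 11 had listed tags in at least 1 group, at a summed 1965 and 2472 CPM (tags per 1000000 gene-strand tags of the group). Their summed signal ran from 2729.6 to 40020.4 in the naive cells (median 14357) and from 1213.6 to 46589.2 in the pretreated cells (median 18963.2). The markers did not move together. Vim went from 775.4 to 1426 CPM, and Col1a1, Pdgfrb and S100a4 were also higher in the pretreated cells, by less than 2-fold. Col1a2 and Col6a1 were level, at log2 ratios of 0.03 (counting interval -0.01 to 0.07) and 0.06 (-0.005 to 0.124). Fn1 (374.5 to 192.7 CPM), Col3a1 (178.1 to 125.2), Pdgfra (12.7 to 3.32) and Dcn (4.08 to 0.672) were lower. With the groups scaled by the median of the gene ratios, Vim (0.47) and S100a4 (0.06) stayed higher. Col1a1 (-0.20), Pdgfrb (-0.21), Col1a2 (-0.38) and Col6a1 (-0.35) were then lower. The marker Lum had no tags and Thy1 was listed in 1 naive cell. Of the markers of other cell types, 3 of 9 haematopoietic genes were listed, at a summed 10.84 and 2.204 CPM with Ptprc at 0, none of 6 epithelial genes, and 1 of 5 endothelial genes in 1 pretreated cell. Whether such other cells contributed to the IRF tags was not tested.

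Irf7, the interferon-inducible amplifier of the response, was nearly unlisted in naive cells and listed in most pretreated cells. Its deposited signal (tags per 10000000 tags of the cell, summed over a cell's peaks of the gene) was 228.0 and 375.7 in the only 2 naive cells that listed it. In the 48 pretreated cells that listed it, the lowest signal was 207.7, the median 465.3 and the highest 1847.8. The 2 naive values lie inside the pretreated range. Only called peaks are listed and calling needs a minimum signal, so an unlisted cell is not one without Irf7 RNA. The listed values therefore cannot tell fewer cells with Irf7 RNA from a lower level per cell. What can be compared is the share of cells that list the gene. The shares were 2.17% of naive cells (95% exact binomial interval 0.264% to 7.63%) and 56.5% of pretreated cells (45.3% to 67.2%), a gap of 54.3 percentage points.

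Summed over cells, Irf7 had 140 naive and 10013 pretreated tags, or 0.897 CPM (exact Poisson interval 0.755 to 1.06) and 45.8 CPM (44.9 to 46.7). The log2 ratio, pretreated over naive with 0.5 tag added to each sum, was 5.67 (5.43 to 5.92). The naive sum rests on 2 cells, and the ratio moved with the counting: it was 7.37 without the highest cell of each group, 4.48 with both strands, 3.76 with the GENCODE table (727 naive tags) and 3.46 at any distance (2036 naive and 31514 pretreated tags). Irf7 was higher in the pretreated cells under each of these. The pretreated cell with the most Irf7 tags was number 74, one of the deepest with 10842624 total tags, and it held 15.7% of the group's Irf7 tags.

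Irf5, which acts below the Toll-like receptor adaptor MyD88 and is best known from myeloid cells, was listed near its RefSeq starts in pretreated cells and in no naive cell. No naive cell of 92 listed it, with an upper exact limit of 3.93%, against 16 of 85 pretreated cells (18.8%, interval 11.2% to 28.8%). Its signal in those 16 cells ran from 203.7 through a median of 552.6 to 3523.3. The sum was 4620 tags or 21.1 CPM (20.5 to 21.7), and 1 cell held 36.1% of it. Without that cell the sum was 13.5 CPM. No fold is given against a group listed at 0, and because only called peaks are listed, an unlisted cell is not one without Irf5 RNA. With the GENCODE table, naive cells had 159 Irf5 tags and pretreated cells 6163.

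Irf1, the activator of antigen-presentation genes, was already listed in many naive cells and in more of the pretreated ones. Among the 39 naive cells that listed it, the signal was 231.5 at the lowest, 749.3 at the median and 6990.3 at the highest. The 60 listing pretreated cells ran from 253.2 through 1039.5 to 7584.2. Both ranges span more than 1 order of magnitude and overlap almost entirely. The share of cells was 42.4% (32.1% to 53.1%) in the naive and 70.6% (59.7% to 79.98%) in the pretreated group, a gap of 28.2 points.

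The Irf1 sums were 11273 and 27429 tags, or 72.2 CPM (70.9 to 73.6) and 125.4 CPM (123.9 to 126.9). Their log2 ratio was 0.80 (0.76 to 0.83), a 1.74-fold higher level in the pretreated cells. That is below the 2-fold mark used here to call a gene in groups of 1 sample, though the ratio was 1.16 in cells with 1500000 to 3500000 tags and 1.01 for windows within 100 bp. The median gene with at least 50 CPM in either group had a log2 ratio of 0.41 itself (quartiles -0.24 and 1.05, 2640 genes), and 66.7% of these genes had a lower ratio than Irf1. Relative to that median Irf1 was higher by 0.39.

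Irf2, whose protein binds the same elements as IRF1 and mostly represses, was listed in fewer of the pretreated cells. Of the naive cells 63 of 92 listed it (68.5%, 57.96% to 77.8%), and of the pretreated cells 39 of 85 (45.9%, 35.02% to 57.04%), a gap of -22.6 points. The signal was 200.3, 801.7 and 3771.9 (lowest, median, highest) in the listing naive cells. It was 199.5, 366.3 and 3299.0 in the listing pretreated cells. The ranges overlap, while the pretreated median lies below the naive one and 1 pretreated cell stands far above the rest of its group.

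Summed, Irf2 had 12870 naive and 10165 pretreated tags, 82.5 CPM (81.1 to 83.9) and 46.5 CPM (45.6 to 47.4). The log2 ratio was -0.83 (-0.87 to -0.79), or -1.24 relative to the median gene, and 12.6% of the 2640 genes had a lower one. Pretreated cell 74 alone held 3577 of the 10165 tags (35.2%). Without that cell the ratio was -1.40, which passes the 2-fold mark. In the share of cells, which weights each cell once, 3.30% of genes had a more negative gap than Irf2. Irf2 reached 50 CPM in the naive group alone, so the level filter itself favours a low rank for it. Among the 5684 genes at 10 CPM, a level that Irf2 reached in both groups, 14.1% had a lower ratio and 1.83% a more negative gap.

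Irf3, whose constitutive protein is phosphorylated by TBK1 after infection, had few tags in both groups. It was listed in 6 naive cells (6.52%, 2.43% to 13.7%), at signals from 286.7 through a median of 530.2 to 2222.2. In 7 pretreated cells (8.24%, 3.38% to 16.2%) the signal ran from 202.4 through 257.1 to 1143.5. The sums were 1298 and 995 tags, 8.32 CPM (7.87 to 8.78) and 4.55 CPM (4.27 to 4.84). The log2 ratio of -0.87 (-0.99 to -0.75) changed sign to 0.13 when windows within 100 bp of the start alone were counted, so no direction is read for Irf3.

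**Figure D1:**
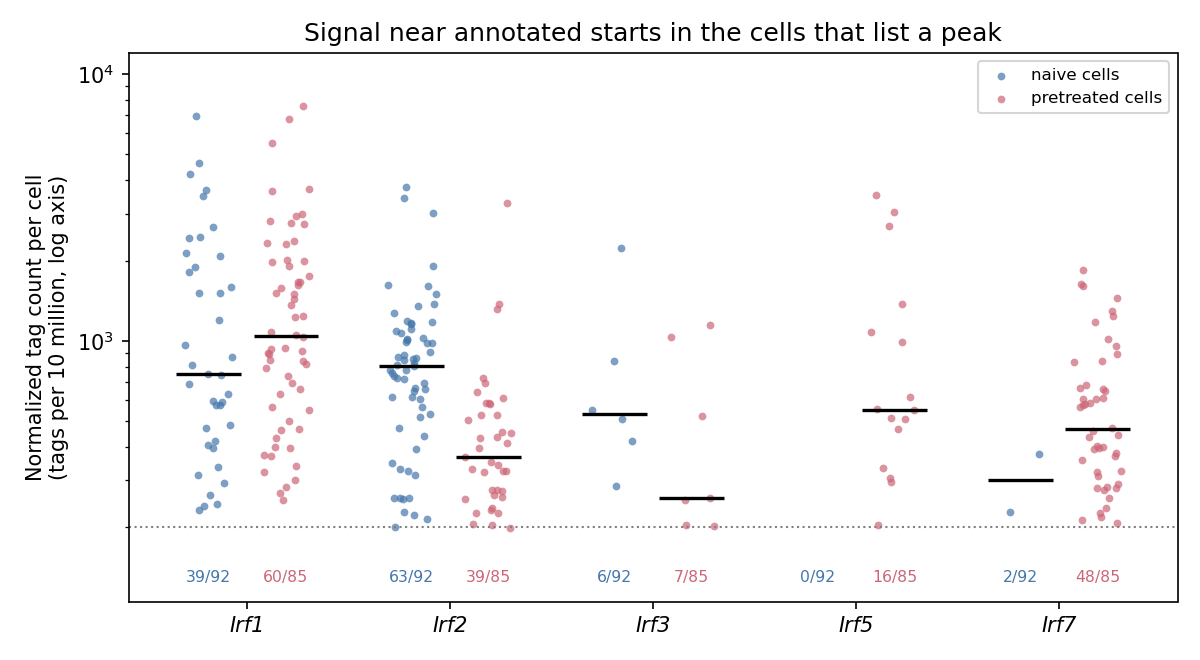
Normalized tag count per cell (tags per 10000000 tags of the cell, log axis) near annotated starts of each gene, 1 point per cell that lists it. Black bars are at the median, and the listing cells of all kept cells are written below. The dotted line is the peak caller's threshold of 200. The lowest point drawn is at 199.5, and over all windows listed signals go down to 110. Irf7 has 2 naive and 48 pretreated points and Irf5 none and 16, while Irf1 and Irf2 overlap between groups.

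Of the 5 genes, Irf1 and Irf2 reached 50 CPM in either group, and neither passed the 2-fold mark (0 of 2), where 26.9% of the 2640 genes at that level were higher and 10.9% lower in pretreated cells. At a minimum of 10 CPM, where 31.8% of 5684 genes were higher and 12.2% lower (genes at 0 in 1 group included), Irf7 was past the mark with a ratio above that of 98.5% of genes, Irf1 and Irf2 were not, and Irf5 was listed at 0 in naive cells. For the share of cells, a gap of at least 20 points upward was common: 47.7% of the 2640 genes and 33.4% of the 5684 had one, and so did Irf1 and Irf7. A gap of 20 points downward was met by Irf2 and by 3.67% and 2.11% of genes. The median gap of all genes was 18.8 points at 50 CPM and 13.2 points at 10 CPM. Irf5, at 18.8 points, stood above 64.2% of genes at the lower level and Irf7 above 98.3%. Against the genes at 50 CPM, a level that neither reached, these shares were 50.1% and 96.5%. Irf5 and Irf7 reached 10 CPM in the pretreated group alone, so the level filter itself favours a high rank for both.

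Cell depth moved with the groups. Among the 64 naive and 55 pretreated cells with 1500000 to 3500000 total tags, the gaps were 30.5 points for Irf1 (28.2 over all kept cells), -21.7 for Irf2 (-22.6), 23.6 for Irf5 (18.8) and 53.2 for Irf7 (54.3), with the same direction in all 4. Thinning to equal depth cannot redo the peak calls, so depth within that range was not matched further. Scaling the groups by the median of the gene ratios shifts every ratio by 0.41. The all-gene split then becomes 15.2% higher and 16.1% lower, in place of 26.9% and 10.9%. Under that scaling Irf1 was at 0.39 and Irf7 at 5.26, both still above 0, and Irf2 at -1.24 passed the 2-fold mark.

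**Figure D2:**
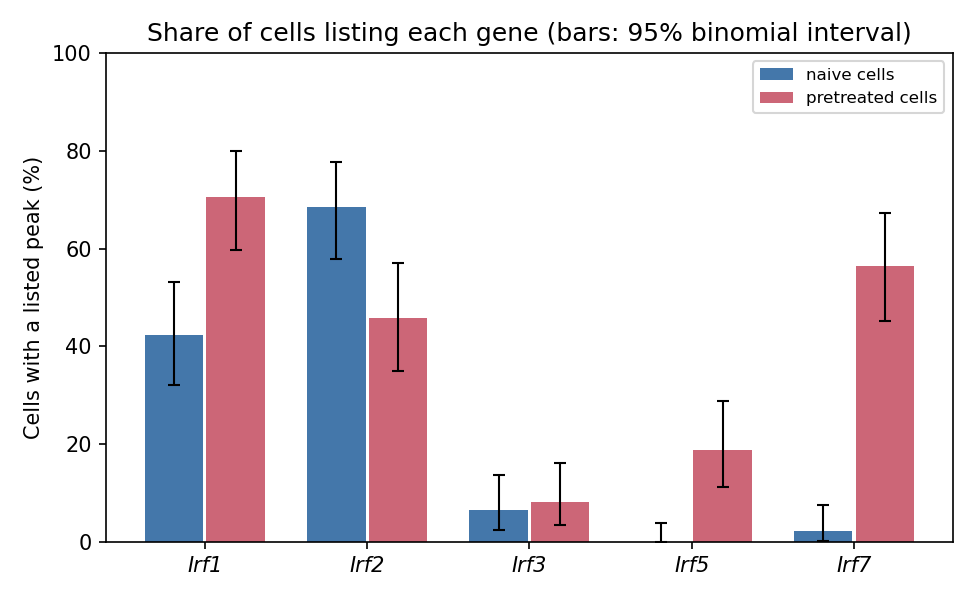
Percentage of the 92 naive and 85 pretreated cells that list a peak of each gene, with 95% exact binomial intervals as error bars. Irf7 goes from 2.17% to 56.5%, Irf5 from 0 to 18.8% and Irf1 from 42.4% to 70.6%, and Irf2 goes down from 68.5% to 45.9%.

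The order of the levels changed between the groups. Tags at start sites come from RNA ends and were not scaled by gene length, and all levels in this order are CPM. In naive cells Irf2 (82.5) came first, then Irf1 (72.2), Irf3 (8.32), Irf7 (0.897) and Irf5 at 0, with no overlap between the counting intervals of neighbours. Those intervals leave out the spread between cells and do not settle the order. With each cell weighted once, as the mean deposited signal over all kept naive cells, Irf2 (625.9) and Irf1 (611.1) were nearly tied. In pretreated cells Irf1 (125.4) came first. Irf2 (46.5) and Irf7 (45.8) followed with overlapping intervals, and Irf5 (21.1) and Irf3 (4.55) came last. The near tie of Irf2 and Irf7 rests on pretreated cell 74, without which Irf2 had 6588 tags and Irf7 8439.

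Cells differed in how many of the 5 genes they listed. In the naive group 16 cells listed none, 44 listed 1, 30 listed 2 and 2 listed 3. In the pretreated group 9 listed none, 13 listed 1, 38 listed 2, 19 listed 3 and 6 listed 4. Pretreated cells also listed more peaks in all (median 6605 against 5231.5). The median gene's share of listing cells was higher there by 18.8 points at 50 CPM and 13.2 at 10 CPM. No cell listed all 5. Irf1 and Irf2 were listed together in 27 naive and 28 pretreated cells, of 39 and 60 cells with Irf1 and 63 and 39 with Irf2. Irf1 and Irf7 shared 35 pretreated cells (of 60 and 48), and Irf2 and Irf7 shared 25 (of 39 and 48). Of the 16 cells with Irf5, 13 also listed Irf1, 9 Irf7 and 5 Irf2. Whether any of these genes shared cells more often than their separate shares give was not tested.

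The start sites of Irf1 lay in 1 narrow region in both groups. Its leading site, a chain of 11 windows whose neighbours start within 50 bp, covered chr11:53583402-53583657 (mm9, + strand), with window centres from -40 to 66 bp of the annotated start. It held 85.7% of the naive Irf1 tags (85.01% to 86.3%, 34 of 39 cells). Of the pretreated tags it held 94.96% (94.7% to 95.2%, 58 of 60 cells). The largest Irf1 peak of a cell lay at 19 to 41 bp in 32 of 39 naive and 56 of 60 pretreated cells.

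A second annotated Irf1 start lies 459 bp downstream. The windows next to it, at chr11:53583887-53584090, had 0 naive tags and 1133 pretreated tags (4.13%) from 4 cells. The naive tags outside the leading site were at 124 to 154 bp of the first start (6.56%, 2 cells) and at 2 windows that the annotation assigns to the second start. These lie 384 and 954 bp past it, with 103 naive tags (0.914%, 1 cell) and 773 (6.86%, 2 cells), and had no pretreated tags. These minor sites each rest on 4 cells or fewer.

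Irf2 also started at 1 site, chr8:47824998-47825273 (mm9, + strand, 12 windows, centres from -27 to 99 bp). It held 97.6% of naive tags (97.4% to 97.9%, 62 of 63 cells) and 96.3% of pretreated tags (95.9% to 96.6%, all 39 cells). The window at 35 bp was the most used in cells, with 29 naive and 15 pretreated cells. The window at -27 bp held 35.2% of the pretreated tags, and all of them came from pretreated cell 74, so the largest pretreated window of Irf2 is the profile of 1 cell. The largest peak was at 19 to 41 bp in 53 of 63 naive cells and 27 of 39 pretreated cells.

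**Figure D3:**
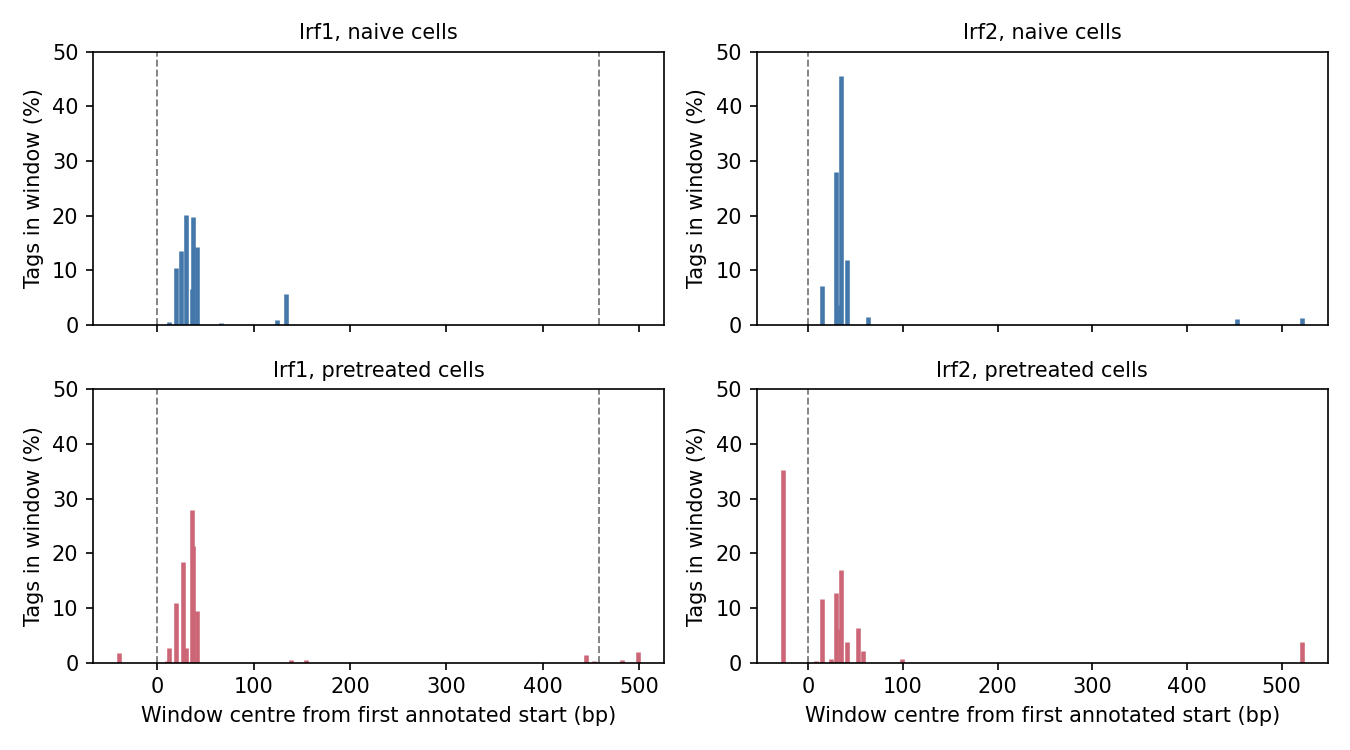
Percentage of the Irf1 (left) and Irf2 (right) tags in each 150 bp window, placed by the distance of its centre from the first annotated start (bp), in naive (top) and pretreated (bottom) cells; dashed lines are annotated starts. Most tags lie from 19 to 41 bp in both Irf1 panels and in naive Irf2, the tall Irf2 line at -27 bp comes from 1 pretreated cell, and naive Irf1 windows with 0.914% and 6.86% of tags lie beyond the plotted range.

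Irf5 tags came from chr6:29476617-29476797 (mm9, + strand, 6 windows at 66 to 97 bp), with 96.04% of the 4620 tags (95.4% to 96.6%) in 14 of 16 cells. The window at 75 bp alone held 2760 tags from 7 cells. A second annotated Irf5 start lies 2657 bp downstream and had 129 tags in 1 cell and 54 in another. For Irf3 the sites were as sparse as its cells. The windows at 21 to 38 bp (chr7:52252965-52253131, + strand) held 28.7% of naive tags (3 cells) and 57.4% of pretreated tags (5 cells), and 68.03% of the naive tags were at 253 and 273 bp in 2 cells, where the annotation also places the promoter of another transcript.

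Most Irf7 tags lay away from its annotated start. That start is at chr7:148452323 on the - strand (mm9), and the windows around it, at -74 to 51 bp, held 418 tags in 5 cells (4.17%) and 213 tags in 1 cell (2.13%). The leading site was chr7:148451688-148452026, 17 windows at 372 to 561 bp downstream, annotated as 5′ UTR in exon 2 and, for the most upstream window, as intron 1 of a different Irf7 transcript. It held 64.1% of the pretreated Irf7 tags (63.2% to 65.1%) in 40 of 48 cells. A group of 14 windows at 879 to 990 bp, in or beside exon 3, held 29.6% (28.7% to 30.5%) in 14 cells.

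Within the leading Irf7 site, the windows at 372 and 382 bp recurred in 12 and 11 cells, with 1748 and 1481 tags, while 14 of its windows were each used by 1 cell. No window of the exon 3 group was used by more than 1 cell. The largest Irf7 peak lay at 372 to 412 bp in 23 of 48 cells. Of the pretreated Irf7 tags 6.30% were within 100 bp of the annotated start, against a median of 96.9% over 5195 genes, of which 11.6% had a lower share. Counted this way, Irf1 was at 99.1%, Irf2 at 96.3% and Irf5 at 100%. The median tag lay at 421 bp in Irf7, at 75 in Irf5, 36 in Irf1 and 29 in Irf2, and at 30 over all genes of the pretreated cells. The windows are those of the mm9 RefSeq models, and whether these RNA 5′ ends are transcription starts, and of which transcript, was not tested.

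**Figure D4:**
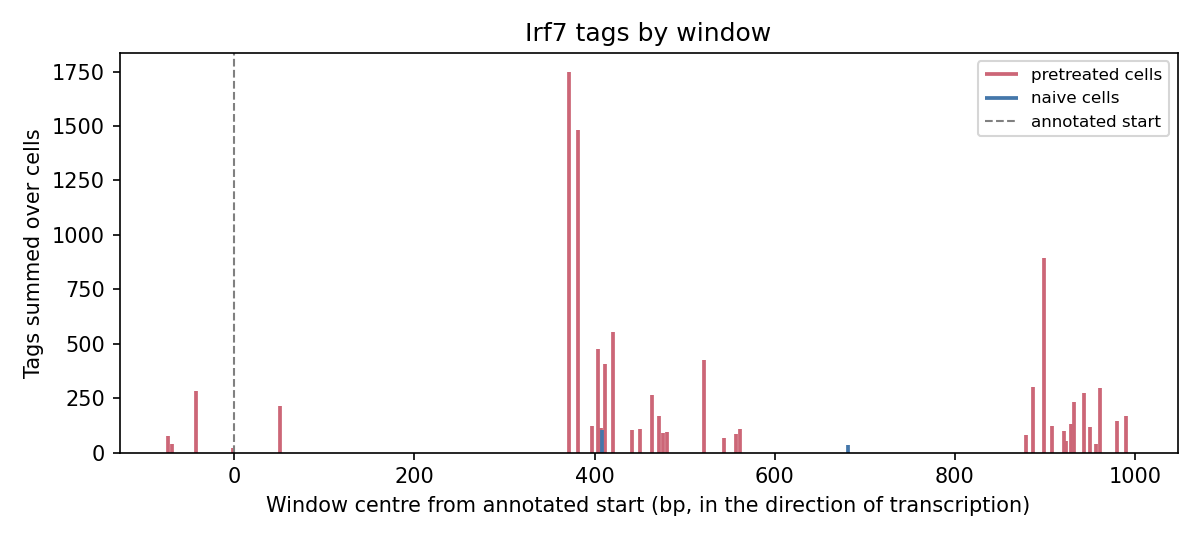
Irf7 tags summed over the cells of a group in each window, by the distance of the window centre from the annotated start (bp, dashed line at 0). The pretreated tags form a tall group at 372 to 561 bp and a lower one at 879 to 990 bp, with 631 tags around the annotated start, and the 140 naive tags are in 2 windows (drawn shifted by 4 bp to be visible).

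The focus ratio, the fraction of a peak's tags near its main position, describes how sharp a start site is. For Irf1 its median over cells was 0.943 in naive cells (range 0.451 to 0.996) and 0.860 in pretreated cells (0.423 to 0.995). For Irf2 it was 0.969 (0.380 to 0.995) and 0.831 (0.277 to 0.998). Both genes thus had lower medians in the pretreated cells. So did all genes together, with 1 value per cell over its many peaks, whose median over cells was 0.864 in the naive and 0.803 in the pretreated group. That pooled value is no yardstick for the peaks of 1 gene. The median listed peak of a cell was at 0.978 in the naive and 0.947 in the pretreated group (median over cells), above Irf1 and Irf2 in both. Irf5 had sharp peaks, at 0.993 (0.745 to 0.999, 16 cells). Irf7 peaks were at 0.906 with a wider range (0.361 to 0.997), and 7 of 48 cells were below 0.5. In Irf3 the medians were 0.967 and 0.983 over 6 and 7 cells.

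Genes of the pathway around these factors were taken from 6 lists of 59 genes, of which 49 had listed tags near a start and 22 reached 50 CPM. Of these 22, 15 were past 2-fold higher in pretreated cells, 1 was lower and 6 were within 2-fold, where 26.9% of all genes at that level were higher and 10.9% lower. With median-of-ratios scaling 13 of the 22 were higher, beside 15.2% of all genes. Of the 15, 10 reached 50 CPM in the pretreated group alone, so the level filter itself favours a higher call for them. The median log2 ratio of the 22 genes was 1.92 against 0.41 over all genes at that level.

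Among the remaining family members, Irf9, whose protein gives the STAT complex of type I interferon signalling its DNA contact, was listed in 35 naive and 57 pretreated cells at 52.1 and 63.9 CPM. Its log2 ratio of 0.30 was within 2-fold and became -0.11 under median-of-ratios scaling, but it was 3.35 when windows within 100 bp of a start alone were counted. Irf4 had no tags near a start, and no window carried the name Irf8.

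The 9 sensors and adaptors, which detect viral nucleic acid and pass the signal towards IRF3 and IRF7, had 2 genes at 50 CPM, which both reached that level in the pretreated cells alone and were past 2-fold higher there. These were Ifih1, the RNA sensor MDA5 (10.8 to 59.9 CPM, log2 ratio 2.47), and Myd88, the adaptor upstream of IRF5 and IRF7 (31.6 to 71.8 CPM, 1.18, but 0.77 under median-of-ratios scaling). Below that level, Tmem173, which encodes STING, was at 38.7 and 37.1 CPM. Of 10 kinases and scaffolds that phosphorylate IRFs or assemble those kinases, 2 reached 50 CPM. Tbk1, the main IRF3 kinase, went from 14.6 to 89.3 CPM (2.61) and from 12 to 51 cells, and reached 50 CPM in the pretreated group alone. Tank, a TBK1-binding scaffold, was within 2-fold (75.1 and 51.96 CPM, -0.53). Of all genes at 50 CPM, 26.9% were higher and 10.9% lower in pretreated cells.

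The receptor and JAK-STAT list of 8 genes carries the interferon signal to the Irf1 and Irf7 genes. Of its 5 genes at 50 CPM, 3 were higher and none lower, where 26.9% of all genes at that level were higher and 10.9% lower. Of the 3, Ifnar2 reached 50 CPM in the pretreated group alone, so the level filter itself favours a higher call for it. The receptor chain gene Ifnar2 went from 7.75 to 61.03 CPM (log2 ratio 2.98), and Usp18, which restrains that receptor, from 425.2 to 1315 CPM (1.63). Stat2 was within 2-fold at 139.2 and 145.4 CPM (0.06, and -0.35 under median-of-ratios scaling). Of 8 IRF cofactors 1 reached 50 CPM, and it was within 2-fold.

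The list of 20 genes known as IRF targets had 11 at 50 CPM, with 9 higher, 1 lower and 1 within 2-fold (26.9% and 10.9% of all genes were higher and lower) and a median log2 ratio of 2.49. Of the 9, 6 reached 50 CPM in the pretreated group alone. B2m, the light chain of MHC class I, went from 327.4 to 2999.9 CPM (3.20). Psmb8, an immunoproteasome subunit gene, went from 19.9 to 407.8 CPM (4.36). The antiviral gene Ifit3 reached 587.2 from 205.5 CPM (1.51), and the chemokine gene Cxcl10 552.9 from 231.9 CPM (1.25, and 0.84 under median-of-ratios scaling). Ccl5, another chemokine gene, was the lower one, from 130.8 to 21.1 CPM (-2.63). Ifit1 was within 2-fold at 679.6 and 1330 CPM (0.97). When windows within 100 bp of a start alone were counted, B2m, Ifit3 and Cxcl10 were at 3.21, 1.51 and 1.25. Psmb8 had no tags there, and Psmb10, another of the 9, went from 3.23 to -0.74. Ifnb1, the gene for interferon-beta itself, was listed in no cell.

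**Figure D5:**
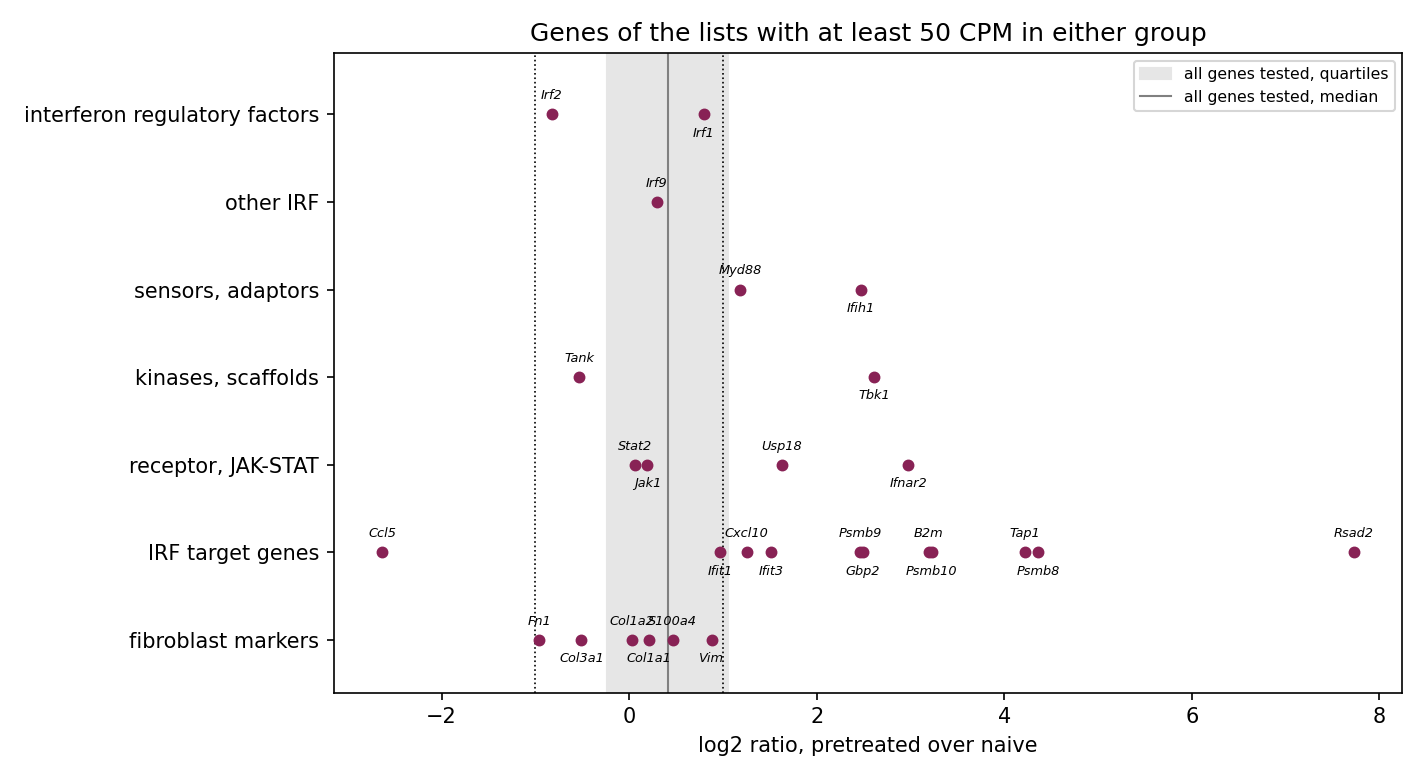
Log2 ratio (pretreated over naive) of genes of the lists with at least 50 CPM in either group; dotted lines mark 2-fold, the grey band the quartiles of all 2640 genes and the grey line their median of 0.41. Irf1 and Irf2 lie inside the 2-fold lines on opposite sides, most target genes lie to the right of them, and the 6 fibroblast markers at that level are all within 2-fold, though Fn1 is at -1.37 under median-of-ratios scaling. The fibroblast markers Pdgfra (-1.94) and Dcn (-2.60) are below that level and not drawn.

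Few genes followed an interferon regulatory factor from cell to cell. Spearman's rho of the scaled signal was taken over the cells of a group, among genes listed in at least 30 of them, and the values describe cells that share a group and differ in depth. In the 92 naive cells the genes most like Irf2 among 2047 were Ift43 (0.45) and Usp18 (0.42). In the 85 pretreated cells those most like Irf1 among 3104 were Mrps11 and Mrpl41 (0.42 each), which encode mitochondrial ribosomal proteins. No gene reached a rho of 0.4 with Irf1 in naive cells, where the highest was 0.36, or with Irf2 (0.38) or Irf7 (0.37) in pretreated cells.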

How the data were processed

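Single-cell TSS-seq of 96 naive and 96 pretreated mouse embryonic fibroblasts was analysed from 1 deposited peak list per cell. Per the submitters' processing notes, Bowtie2, HOMER and build mm9 were used. Per the file headers, HOMER findPeaks in its start-site mode called peaks of 150 bp per cell and strand, at least 300 bp apart, with a threshold of 200 tags per 10000000 and at least 2 times the tags of the surrounding 10000 bp (Poisson p of at most 1e-04). Signal was deposited as each peak's tags per 10000000 tags of that cell, and the deposited focus ratio is a fraction from 0 to 1. Distances to annotated starts are a signed score in bp from the RefSeq and, as an alternative, GENCODE tables, as deposited. How duplicates and molecular identifiers were handled is not given in the sources used here, so a tag is a read.

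Tags were recovered as signal times header total over 10000000, and all 1082504 peaks came out whole within 0.1 or the rounding of the deposited value. Of these peaks 1080791 lay within 2 bp of a window start. A gene strand was found for 18361 of 18460 genes (99.5%) in RefSeq or, failing that, GENCODE vM21. Values were summed over the kept cells and given as CPM of 156042529 naive and 218689647 pretreated gene-strand tags. Intervals are exact Poisson and Clopper-Pearson intervals at 95% and cover counting error only. The log2 ratio adds 0.5 tag, and a gene was called past 2-fold at 50 CPM in either group. Python 3.11.15, numpy 2.4.6, pandas 2.3.3, scipy 1.17.1 and matplotlib 3.10.9 were used.

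The 5 genes and the lists were chosen with earlier results of these data known. All 5 genes are named, and of each pathway list the most abundant genes past 2-fold (at most 4 per direction) and the most abundant within it. Psmb10 was added for its value within 100 bp. Genes alike from cell to cell are named where Spearman's rho reached 0.4. The added alternatives, chosen after seeing the data, are leaving out pretreated cell 74 and a denominator of tags near annotated starts. A further 384 columns of per-cell values without names were not used. Values of some genes of the lists are not reported here.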

Additional observations from a re-analysis of the deposited data

Results flagged for a closer look

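The values here lie outside the main measurement, either beyond 1000 bp of an annotated start or on the strand opposite the gene. Those described below were picked for being higher in pretreated than in naive cells. Others were lower there: tags on the gene's strand beyond 1000 bp of Irf2 (47.8 to 14.6 CPM) and Irf3 (18.7 to 7.36). So were opposite-strand tags beyond 1000 bp of Irf2 (7.72 to 2.16) and Irf5 (36.03 to 27.5), and of Irf7 within 1000 bp (1.25 to 0). No test was run on any of them. Irf7 tags on the gene's strand beyond 1000 bp came to 98.3 CPM in pretreated cells (21501 tags, 71 of 85 cells) and 12.2 CPM in naive cells (1896 tags, 12 of 92 cells). Of all pretreated Irf7 tags at any distance (31514 in 77 cells), 39.8% were annotated to the transcript's end (12545 tags in 57 cells), 27.97% to exons beyond 1000 bp and 31.8% to windows within 1000 bp of the start. That last share is low beside a median of 91.97% over 3068 genes, of which 12.9% had a lower one.

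Irf1 tags beyond 1000 bp stood at 50.6 CPM in pretreated and 50.04 CPM in naive cells, and its 3′ UTR held 15.6% and 20.7% of all Irf1 tags. Those of Irf5 were at 13.8 CPM (10 cells) and 3.85 CPM (3 cells). On the opposite strand, Irf1 had 1.495 CPM within 1000 bp (327 tags in 2 pretreated cells, none in naive cells) and 5.48 CPM beyond it (9 pretreated cells, against 0.660 CPM in 2 naive cells). Irf5 had 0.540 CPM within 1000 bp (118 tags in 1 pretreated cell, none in naive cells). Irf3 had 1.67 CPM beyond 1000 bp (3 pretreated cells, none in naive cells). Irf7 had 23.99 CPM on the opposite strand beyond 1000 bp (29 pretreated cells) against 21.9 CPM (19 naive cells).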

How the results depend on the processing

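Each group is 1 sample, so no alternative tests replication. No paired analysis was possible because each numbered sample is 1 cell, the numbers pair no cells, and no result comes from a test between groups. Of 132 recomputed values, 77 moved by less than their spread or counting interval, 54 moved by more and 1 changed sign: Irf3 at 0.13 with windows within 100 bp. The cause of each shift was not tested.

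Irf1's log2 ratio (0.80) was 0.39 with median-of-ratios scaling, 1.16 in cells of medium depth (total tags from 1500000 to 3500000), 0.85 without each group's highest cell, 1.01 within 100 bp, 0.53 at any distance, 0.91 with the GENCODE table, 0.88 on both strands, 0.62 per tags near starts, 0.84 as a mean over cells and 0.85 without pretreated replicate 74. In the same order (the 100 bp value moved little), Irf2 (-0.83) was at -1.24, -1.80, -1.33, -1.09, -0.78, -0.76, -1.01, -1.41 and -1.40. Both kept their direction, and both passed 2-fold under some settings only. Irf3 (-0.87) was otherwise at -1.28 (median-of-ratios), -0.14 (medium depth), -0.57 (no highest cell), -1.18 (any distance), -1.05 (near tags) and -0.30 (mean over cells). Irf7 (5.67) was at 5.26 with median-of-ratios scaling, 7.37 without the highest cells, 3.46 at any distance, 3.76 with GENCODE and 4.48 on both strands. Within 100 bp it was listed in no naive cell and gets no ratio.

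Irf5 (21.1 CPM in pretreated cells) was at 16.1 per header totals, 24.1 in cells of medium depth, 13.5 without its highest cell, 34.9 at any distance, 30.6 with GENCODE, 19.5 on both strands, 26.4 per near tags and 21.9 without pretreated replicate 74. The Irf7 gap in listing cells (54.3 points) was 7.06 within 100 bp and 76.5 at any distance. The leading site's share, with single windows as sites, was 20.2% and 27.8% for Irf1, 45.4% and 35.2% for Irf2 (naive and pretreated) and 17.5% for Irf7. Chaining within 150 bp gave 92.2% and 95.9% for Irf1. Averaging over cells gave 87.2% and 95.4% for Irf1, 98.96% for pretreated Irf2 and 70.8% for Irf7. Of the pathway genes 23 of 41 were higher and 3 lower with 1 tag or more in both groups, where 31.9% of all genes were higher and 15.8% lower (15 and 1 of 22 at 50 CPM), and 3 of 33 were lower at 10 CPM. The median focus ratios moved by less than their spread under each alternative. In each group Irf3, Irf5 and, for naive cells, Irf7 rest on 16 listing cells or fewer. Thinning cells to equal depth does not redo the peak calls and supports nothing here.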

Other observations

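Irf9, chosen for description after its values were seen, was at 52.1 CPM in naive and 63.9 CPM in pretreated cells within 1000 bp of a start, with its tags at different windows. Its windows at chr14:56222897-56223180 (mm9), 149 to 283 bp past an annotated start, held 80.1% of the naive tags (6515 tags, 31 cells) and 41.3% of the pretreated tags (5767 tags, 26 cells). The windows at chr14:56223223-56223493, at -119 to 2 bp of a later annotated start, held 4.18% of the naive tags (340 tags, 3 cells) and 37.9% of the pretreated tags (5302 tags, 31 cells). No replicate checks this difference, and it was not tested.

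Irf4, with no tags near an annotated start, had 248 tags in 3 pretreated cells elsewhere on its strand, and 3598 tags in 15 pretreated and 505 in 5 naive cells on the opposite strand.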
